A study of Homo sapiens with 92 samples.

Results

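LPAR1 and UGCG are neighbours at a distance on human chromosome 9, and 5 more genes of the same stretch were described with them: KIAA0368, ZNF483, PTGR1 and DNAJC25, which lie between the pair, and SUSD1, which lies beyond UGCG. These 7 genes were taken by name out of 48905 genes counted in the files. They were selected because new RNA of LPAR1 and UGCG had been seen to be lower after loss of NIPBL in RPE-1 cells while the genes between them had not, so their differences between drug and vehicle in RPE-1 are given below as a description, with no test. The rule had no numerical threshold. Over the 3 averages of several times defined below, the smallest change of the lowered pair was -0.53 ± 0.11 on the log2 scale for LPAR1, while the lowest values of the others were -0.64 ± 0.36 for PTGR1, which rested on few reads, and -0.18 ± 0.15 for ZNF483 (SE).

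LPAR1 is a G protein-coupled receptor for lysophosphatidic acid, a lipid made outside cells by the enzyme ENPP2 (autotaxin). UGCG transfers glucose to ceramide, the first step in making most glycosphingolipids, including gangliosides. NIPBL is the partner of cohesin that lets this ring-shaped complex pull out loops of DNA, by which distant parts of one chromosome can come close together.

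New RNA was measured by SLAM-seq, in which cells take up 4-thiouridine (4sU) and the labelled bases are read as T-to-C conversions. Reads with a conversion stand for RNA made during the label. No library here lacked 4sU and no background of conversions was subtracted, so converted reads may also hold some older RNA. With 15 min of 4sU in the mitosis series, 2.44 to 9.05% of reads were converted. The values below are converted reads in CPM, counts-per-million of converted reads after scaling between the libraries of one fit. All RPE-1 cells, those given DMSO included, were clone NIPBL-D7 of the immortalised retinal pigment epithelial line hTERT RPE-1, a single clone with the genotype mGreenLantern-P2A-FKBP12(F36V)-NIPBL, in which the degron tag makes NIPBL protein a target of dTAGV-1 (dTAG below). DMSO was the vehicle. Cells were synchronised with a double thymidine block and nocodazole at 20 ng/ml.

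In the mitosis series dTAG or DMSO was present for 120 min with nocodazole and then after release. Of the libraries with 15 min of 4sU, those at 0 min after release were 4 dTAG and 3 DMSO, those at 30 min were 3 dTAG and 3 DMSO, those at 60 and 90 min were 4 dTAG and 4 DMSO per time, those at 120 min were 3 dTAG and 4 DMSO, and those at 4, 6 and 8 h were 2 dTAG and 2 DMSO per time. For the release series the labels give drug times of 30, 60, 90 and 120 min, with 3 dTAG and 3 DMSO libraries at each. They do not say how long after release the drug was added, and the times of this series are called drug times here. At 120 min each series also had 3 dTAG and 3 DMSO libraries with 120 min of 4sU. Cardiomyocytes and neurons were differentiated from WTC11 iNgn2 human induced pluripotent stem cells, with a kit for ventricular cells and by SMAD inhibition in that order, and were treated for 4 h with 120 min of 4sU, with 2 dTAG and 2 DMSO libraries of each. For these 8 libraries the titles and the growth protocol name WTC11. The source, cell line and genotype fields name the RPE-1 line and its allele, and the titles were followed. Those titles do not name the NIPBL allele of the WTC11 cells. No label says that replicates were separate cultures, so p-values measure the spread between libraries, which may be technical.

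Depth and identity were as follows over the 92 libraries. Totals ran from 10.7 to 114 M reads and from 0.419 to 35.4 M converted reads, which were 2.44 to 38.9% of all reads. Replicate 3 of DMSO at 120 min of the mitosis series (15 min of 4sU) stood apart, with 0.644 M converted reads of which 13.5% came from 10 genes, against at most 4.63% in any other library. Group means of the release series in DMSO correlated across 10223 genes at 0.960 to 0.981 with DMSO at 4 and 6 h of the mitosis series, and at 0.771 to 0.874 with DMSO at 0 to 120 min. In RPE-1, 3 of 8 markers of retinal pigment epithelium (MITF, OTX2 and KRT18) had a median of at least 1 CPM, while RPE65, RLBP1 and TYR had a median of 0. Among markers of other cell types MBP, PAX6 and MAP2 had medians of 52.9, 50.4 and 47.3 CPM in RPE-1. All 7 cardiomyocyte markers and 6 of 7 neuron markers were at 1 CPM or more in the cells named for them. The exception was TUBB3. SYN1 had a mean of 2.44 CPM in neurons and 4.26 CPM in cardiomyocytes, both with DMSO. Of the markers of pluripotent cells, LIN28A had means of 109 CPM in cardiomyocytes and 173 CPM in neurons with DMSO. DPPA4 was at 0.491 and 3.76 CPM there, and POU5F1 and NANOG lay below 1 CPM in both. The drug acts on NIPBL protein, so NIPBL RNA does not check the labels. It ranged from 279 to 530 CPM with dTAG and from 141 to 480.5 CPM with DMSO in the mitosis series.

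In hg38 coordinates LPAR1 occupies chr9:110873263-111038458 on the minus strand and UGCG chr9:111896766-111935369 on the plus strand, so the 2 genes are transcribed away from each other and their starts are 858.3 kb apart. Between them lie KIAA0368 at chr9:111360692-111484745 (minus), ZNF483 at chr9:111525159-111577844 (plus), PTGR1 at chr9:111562577-111599855 (minus) and DNAJC25 at chr9:111631352-111654351 (plus). SUSD1 lies at chr9:112040785-112175408 (minus), 105415 bases beyond the end of UGCG. ZNF483 and PTGR1 overlap by 15268 bases on opposite strands. Whether reads were counted by strand, or over exons alone, is not given in the sources used here, so reads in that overlap may have been given to either gene.

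The promoter windows of the pair are shown because these genes were lowered together, and that of SUSD1 because it is the neighbour next to UGCG that was not. Each window holds 250 bases before and 50 bases after a RefSeq start in GRCh38.p14, 5′ to 3′ on the strand of the gene. Capitals mark matches on either strand to CCAAT (the CCAAT box), GGGCGG (the GC box), TTCCGG (part of an ETS site) or AGGGGGCG (part of the CTCF core). The LPAR1 window is chr9:111038421-111038720 on the minus strand, the nearest of 6 windows listed for the gene. The UGCG window is chr9:111896564-111896863 on the plus strand and the SUSD1 window chr9:112175248-112175547 on the minus strand.
LPAR1: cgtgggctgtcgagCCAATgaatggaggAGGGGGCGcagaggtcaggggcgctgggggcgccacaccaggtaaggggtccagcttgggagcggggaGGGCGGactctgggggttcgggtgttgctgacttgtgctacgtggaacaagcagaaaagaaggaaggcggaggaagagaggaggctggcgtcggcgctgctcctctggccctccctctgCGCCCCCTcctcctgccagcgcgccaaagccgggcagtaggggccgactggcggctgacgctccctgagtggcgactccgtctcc
UGCG: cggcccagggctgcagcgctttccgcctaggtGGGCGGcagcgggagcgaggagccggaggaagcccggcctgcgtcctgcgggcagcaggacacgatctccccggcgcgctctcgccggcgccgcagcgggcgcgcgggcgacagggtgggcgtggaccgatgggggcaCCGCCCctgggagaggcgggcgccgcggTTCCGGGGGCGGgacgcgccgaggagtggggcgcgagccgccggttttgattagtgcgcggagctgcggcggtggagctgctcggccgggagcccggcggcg
SUSD1: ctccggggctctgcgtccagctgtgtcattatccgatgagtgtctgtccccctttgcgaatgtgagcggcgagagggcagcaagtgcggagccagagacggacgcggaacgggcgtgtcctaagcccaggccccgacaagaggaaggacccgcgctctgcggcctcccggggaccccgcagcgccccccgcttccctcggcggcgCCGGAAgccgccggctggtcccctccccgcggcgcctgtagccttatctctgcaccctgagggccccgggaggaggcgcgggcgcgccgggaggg

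The 3 windows were rich in G and C, at 68.3% with 22 CpG dinucleotides for LPAR1, 79.0% with 48 for UGCG and 72.7% with 35 for SUSD1. The LPAR1 window held 1 CCAAT, 1 GGGCGG and 2 AGGGGGCG on either strand. The UGCG window held 3 GGGCGG and 1 TTCCGG, and the SUSD1 window 1 TTCCGG. Of 35116 RefSeq promoter windows of this length, 34.61% held CCAAT, 44.95% GGGCGG, 17.25% TTCCGG and 8.30% AGGGGGCG. TATAAA (the TATA box), TGACTCA (for AP-1), CATTCC (for TEAD factors) and CACGTG (the E-box), held by 11.53%, 4.95%, 14.03% and 7.26% of all windows, were not among the letters of these 3. The windows of KIAA0368 and PTGR1 also held 1 GGGCGG each. All 7 members had a RefSeq window, KIAA0368 under its newer name ECPAS.

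LPAR1 new RNA started at a similar level in both arms of the mitosis series, and by 4 h the arms stood several-fold apart. At 0 min LPAR1 was at 162, 196, 129 and 133 CPM with dTAG, against 216, 144 and 193 CPM with DMSO. At 60 min it was at 135, 121, 85.3 and 90.9 CPM with dTAG, against 147, 166, 105 and 145 CPM with DMSO. The arms overlapped at 0, 30 and 60 min, with log2 changes of -0.25 ± 0.23, -0.22 ± 0.24 and -0.38 ± 0.21 (SE), dTAG over DMSO. In bulk libraries like these, fewer cells making a transcript and less of it per cell cannot be told apart.

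At 90 min LPAR1 was at 168, 161, 145 and 148 CPM with dTAG, against 187, 224, 230.3 and 248 CPM with DMSO. Every dTAG library lay below every DMSO library, at a change of -0.52 ± 0.21. At 120 min it was at 129.7, 131 and 103 CPM with dTAG, against 214, 308, 118 and 305 CPM with DMSO. The arms overlapped here through 1 DMSO library, the replicate 3 that stood apart, and the change was -0.98 ± 0.23 with it and -1.19 ± 0.21 without it.

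At 4 h LPAR1 was at 75.3 and 49.2 CPM with dTAG, against 530.2 and 617 CPM with DMSO. At 6 h it was at 71.6 and 63.6 CPM with dTAG, against 618 and 666 CPM with DMSO. At 8 h it was at 106 and 82.5 CPM with dTAG, against 644 and 529 CPM with DMSO. The 2 arms stood far apart at each of these times. The log2 changes were -3.19 ± 0.19, -3.25 ± 0.19 and -2.64 ± 0.18, which is 9.12-fold, 9.51-fold and 6.22-fold lower with dTAG. On 1 scale over all 92 libraries, dTAG group means of LPAR1 were 97.0 to 145 CPM at 0 to 120 min and 67.5 to 104 CPM at 4 to 8 h. DMSO group means were 126.5 to 213 CPM at 0 to 120 min and 624.6 to 706 CPM at 4 to 8 h, so the late gap went with a high level in DMSO.

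UGCG followed a similar course, with a gap that opened at 90 min. At 0 min UGCG was at 204, 231, 199.5 and 134 CPM with dTAG, against 276, 278 and 188 CPM with DMSO. At 30 min it was at 198, 222 and 155 CPM with dTAG, against 273, 223 and 236 CPM with DMSO. At 60 min it was at 263, 212, 209.6 and 212 CPM with dTAG, against 249.7, 301, 261 and 247 CPM with DMSO. The arms overlapped at 0 and 60 min and lay next to each other without overlap at 30 min, and the 3 log2 changes were -0.36 ± 0.20, -0.35 ± 0.22 and -0.24 ± 0.19.

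At 90 min UGCG was at 154, 157, 168 and 161 CPM with dTAG, against 244, 304, 394 and 433 CPM with DMSO. At 120 min it was at 146, 193 and 101 CPM with dTAG, against 239, 359, 296 and 389 CPM with DMSO. The arms no longer overlapped at either time, and the dTAG libraries were lower, with changes of -1.10 ± 0.19 and -1.13 ± 0.21. At 90 min the change of UGCG was 2.14-fold and that of LPAR1 1.43-fold. The 2 changes rest on the same libraries, and their difference was not tested.

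At 4 h UGCG was at 91.96 and 85.4 CPM with dTAG, against 492 and 530.5 CPM with DMSO. At 6 h it was at 97.5 and 92.1 CPM with dTAG, against 655 and 649.8 CPM with DMSO. At 8 h it was at 106 and 92.3 CPM with dTAG, against 582 and 544 CPM with DMSO. As for LPAR1, the 2 arms stood far apart, at 5.76-fold, 6.88-fold and 5.67-fold lower with dTAG.

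**Figure D1:**
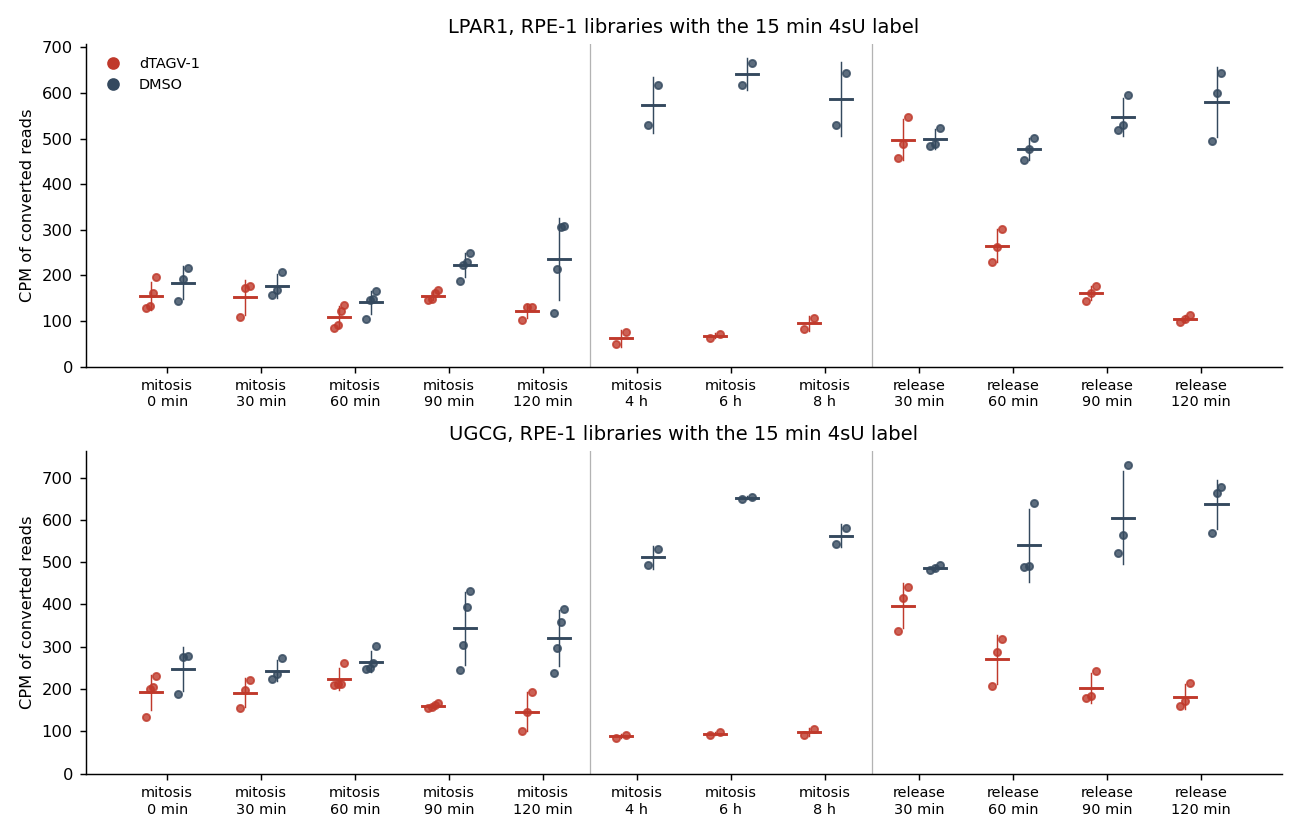
Converted reads in CPM (linear axes from 0) of LPAR1 (top) and UGCG (bottom) in each RPE-1 library with 15 min of 4sU, by time in each series, with dTAG left of DMSO; points are libraries, and bars are the mean and SD. The arms of both genes part late in the mitosis series and within the release series.

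In the release series the 2 genes were high in DMSO at every drug time, with LPAR1 group means of 495 to 649 CPM on the scale of all libraries, and both were lower with dTAG from a drug time of 60 min on. At 30 min LPAR1 was at 489, 547 and 457 CPM with dTAG, against 487, 524 and 484 CPM with DMSO. At 60 min it was at 263, 302 and 229 CPM with dTAG, against 477, 501 and 452 CPM with DMSO. The arms overlapped at 30 min and not at 60 min. At 90 min it was at 145, 176 and 161 CPM with dTAG, against 529.7, 596 and 518 CPM with DMSO. At 120 min it was at 103, 98.2 and 113 CPM with dTAG, against 495, 644 and 601 CPM with DMSO. The dTAG libraries were lower at each longer drug time, and the changes reached 1.80-fold, 3.41-fold and 5.52-fold.

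UGCG at a drug time of 30 min was at 414, 440.1 and 337 CPM with dTAG, against 481, 492 and 486 CPM with DMSO. At 60 min it was at 207, 287 and 319 CPM with dTAG, against 489, 640.1 and 491 CPM with DMSO. The dTAG libraries of UGCG lay below the DMSO libraries at both times, by log2 changes of -0.28 ± 0.17 and -0.99 ± 0.17. At 90 min it was at 179, 184 and 243 CPM with dTAG, against 564, 729.9 and 522 CPM with DMSO. At 120 min it was at 159.9, 171 and 215 CPM with dTAG, against 569.6, 677 and 663 CPM with DMSO. The arms were apart at both times as well, with changes of -1.58 ± 0.17 and -1.80 ± 0.17.

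**Figure D2:**
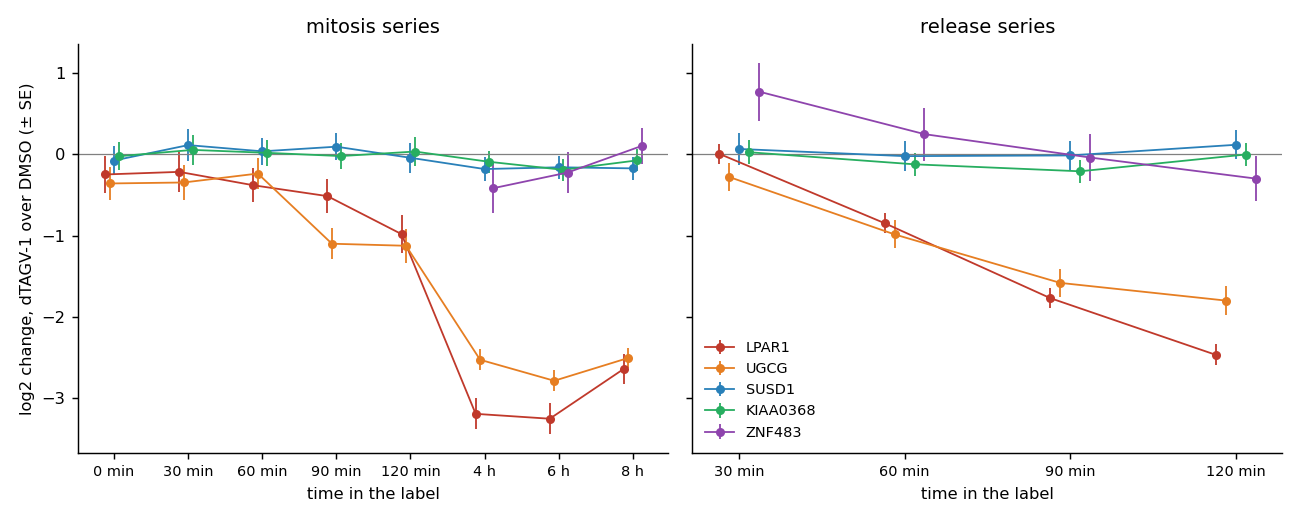
Log2 change of converted reads, dTAG over DMSO, with its SE, for 5 members by time after release (mitosis series) or drug time (release series), with ZNF483 only where it was tested. LPAR1 and UGCG move down to -3.25 and -2.78 at 6 h and to -2.46 and -1.80 at a drug time of 120 min, while the values of KIAA0368 and SUSD1 run from -0.21 to 0.11.

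The libraries with 120 min of 4sU gave the same order of the arms. In the mitosis series LPAR1 was at 129.8, 98.2 and 65.7 CPM with dTAG, against 188, 195 and 188 CPM with DMSO. UGCG was at 100.5, 86.5 and 76.6 CPM with dTAG, against 196, 224 and 247 CPM with DMSO. Neither gene had overlapping arms, and the log2 changes were -0.95 ± 0.22 for LPAR1 and -1.34 ± 0.16 for UGCG. In the release series LPAR1 was at 122, 133 and 116 CPM with dTAG, against 394, 647 and 563 CPM with DMSO. UGCG was at 259, 293 and 309 CPM with dTAG, against 781, 862 and 651 CPM with DMSO. The dTAG libraries were again all lower, at -2.11 ± 0.22 for LPAR1 and -1.41 ± 0.16 for UGCG.

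In all reads, which include RNA made before the label, the differences were smaller. Averaged over 4 to 8 h the change in all reads was -2.71 for LPAR1, and in converted reads -3.02 ± 0.11. For UGCG it was -2.43 in all reads and -2.60 ± 0.07 in converted reads. Averaged over the release series, LPAR1 changed by -0.74 in all reads and -1.27 ± 0.06 in converted reads, and UGCG by -0.67 and -1.16 ± 0.09. The share of a gene's reads that were converted after 120 min of 4sU was also lower with dTAG. For LPAR1 it was 30.8 ± 1.82% with dTAG and 57.3 ± 6.88% with DMSO in the release series, and 16.0 ± 2.36% with dTAG and 25.1 ± 3.83% with DMSO in the mitosis series (SD, n = 3 each). For UGCG it was 52.4 ± 6.396% with dTAG and 63.5 ± 6.01% with DMSO in the release series, and 19.2 ± 1.51% with dTAG and 31.8 ± 1.37% with DMSO in the mitosis series. For UGCG in the release series this gap was close to the spread between libraries.

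Over the 14 pairs of dTAG and DMSO groups of RPE-1 and the 2 pairs of WTC11 cells, LPAR1 had every dTAG library below every DMSO library in 11 of 16 and UGCG in 14 of 16, while the rest overlapped. For KIAA0368 the count was 2 of 16 and for SUSD1 3 of 16. Where they were tested, ZNF483 had 1 pair all below, 1 all above and 9 overlapping, and PTGR1 had 1, 1 and 5. The share of all genes with arms apart in this way was not computed, so nothing is read from these counts. As background, edgeR's quasi-likelihood test with Benjamini-Hochberg adjustment called, at a threshold of 0.05, 1.25% of all genes tested for the average over 30 to 120 min of the mitosis series. It called 19.8% over 4 to 8 h, 2.28% over 30 to 120 min of the release series, 2.46% (407 genes, and 833 with the replicate number as a block, as these libraries paired) for 120 min of 4sU in the mitosis series and 0.718% for that in the release series. The members were selected on these RPE-1 contrasts, and nothing is read from their counts against those shares. No DMSO library enters more than 1 of these 5 contrasts.

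Of the genes between and beside the pair, KIAA0368, a scaffold that binds the proteasome and is now named ECPAS, had similar new RNA in both arms throughout. Its log2 change was 0.02 ± 0.08 for the average over 30 to 120 min of the mitosis series, -0.12 ± 0.08 over 4 to 8 h and -0.08 ± 0.07 in the release series. At 6 h it was at 357 and 342 CPM with dTAG, against 406 and 394 CPM with DMSO, where LPAR1 and UGCG stood at 9.51-fold and 6.88-fold lower. The 2 arms of KIAA0368 did not overlap at that time, and the change was -0.19 ± 0.14. At a drug time of 120 min it was at 455, 405 and 372 CPM with dTAG, against 405, 405 and 425 CPM with DMSO. There the arms overlapped.

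SUSD1, which encodes a sushi domain protein of the membrane and lies next to UGCG, also had similar values in both arms. Its log2 change was 0.05 ± 0.09 over 30 to 120 min of the mitosis series, -0.17 ± 0.08 over 4 to 8 h and 0.03 ± 0.09 in the release series. At 4 h it was at 51.9 and 46.7 CPM with dTAG, against 56.1 and 56.3 CPM with DMSO. At 6 h it was at 55.17 and 49.0 CPM with dTAG, against 61.2 and 55.21 CPM with DMSO. At 8 h it was at 49.8 and 41.9 CPM with dTAG, against 52.5 and 50.9 CPM with DMSO. The dTAG libraries lay just below the DMSO libraries at each of these 3 times, by changes of -0.18, -0.16 and -0.18 with SEs of 0.14 to 0.15. At a drug time of 120 min SUSD1 was at 47.0, 45.9 and 50.6 CPM with dTAG, against 37.3, 48.0 and 47.1 CPM with DMSO, with overlapping arms.

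The remaining 3 members gave few converted reads in the RPE-1 libraries with 15 min of 4sU. ZNF483, a zinc finger gene, had 0 to 8 converted reads per library at 0 to 120 min of the mitosis series and was not tested there. At 4 h it was at 5.11 and 4.71 CPM with dTAG, against 6.37 and 6.87 CPM with DMSO, with both dTAG libraries below both DMSO libraries (-0.42 ± 0.30). At 8 h it was at 14.0 and 14.4 CPM with dTAG, against 12.02 and 14.4 CPM with DMSO. At a drug time of 120 min it was at 9.82, 10.0 and 16.8 CPM with dTAG, against 16.8, 13.1 and 16.9 CPM with DMSO. The arms overlapped at 8 h and at a drug time of 120 min, and its averages were -0.18 ± 0.15 over 4 to 8 h and 0.17 ± 0.16 in the release series. With 120 min of 4sU in the mitosis series it had 26, 27 and 7 converted reads with dTAG, against 43, 24 and 34 with DMSO, a change of -0.69 ± 0.29 that became -1.10 without replicate 2 and -0.32 in all reads. With 120 min of 4sU in the release series it had 431, 201 and 400 converted reads with dTAG, against 351, 694 and 440 with DMSO, at a change of -0.03 ± 0.22. PTGR1, an enzyme that inactivates leukotriene and prostaglandin mediators, had at most 24 converted reads in any 15 min library. Its average over 4 to 8 h was -0.64 ± 0.36 in converted reads and -0.13 in all reads.

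DNAJC25, which encodes a J-domain protein, had 1 read in each of 2 libraries and no converted read in any of 92, and no level is given. The read-through gene DNAJC25-GNG10 overlaps it and had 638 converted reads in all libraries together, so reads of DNAJC25 may have been given to neither or to the other gene. Of the 10 other genes listed between LPAR1 and UGCG, none had more than 86 converted reads in a library. Of the 7 members, 5 passed the filter on low counts in the release series, 4 at 0 to 120 min of the mitosis series, and 6 in the late, the 120 min 4sU and the WTC11 libraries.

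**Figure D3:**
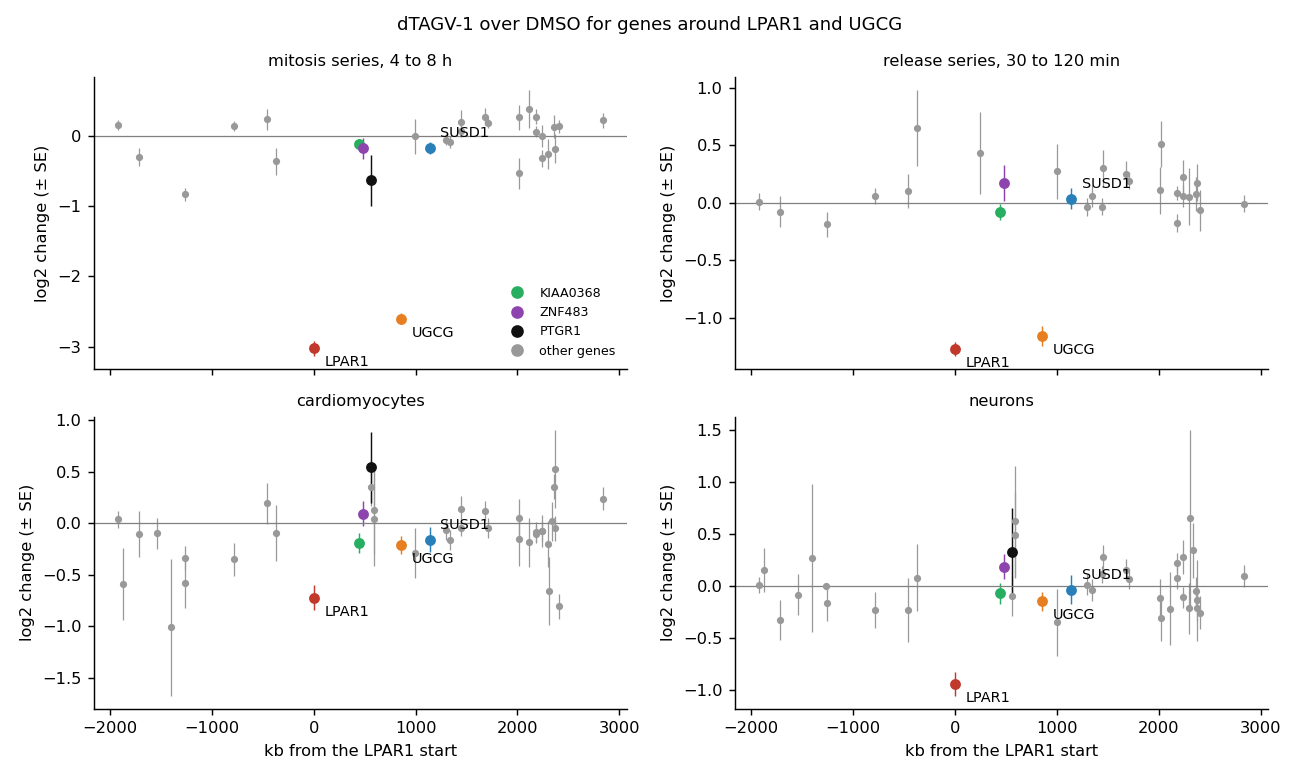
Log2 change of converted reads, dTAG over DMSO, of each tested gene within 2.0 Mb of the pair, by the distance of its start from the LPAR1 start; coloured points are members, black is PTGR1 and grey are other genes, with SE bars and different y axes. The low points at 0 and at 858.3 kb are LPAR1 and UGCG.

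The files list 72 other genes with a start within 2.0 Mb of the pair or between them, of which 25 were tested in the 15 min libraries, 33 in the 120 min RPE-1 libraries and 35 in the WTC11 libraries. Over 4 to 8 h 9 of 25 were at an unadjusted p under 0.05 (edgeR), against 4541 of 14570 among all genes. By adjusted p 1 of 25 was lower and none higher with dTAG, against 19.8% called among all genes. It was PALM2-AKAP2, a read-through gene with a start 1258.1 kb from that of LPAR1 on the side away from UGCG, at -0.84 ± 0.09 (adjusted p = 1.9e-06). PALM2-AKAP2 was also lower after 120 min of 4sU in the mitosis series, at -2.14 ± 0.29 (adjusted p = 0.000751). It was 1 of 33 called there by edgeR, against 2.46% of all genes, and DESeq2 called 2 of 33. In the averages over 30 to 120 min 0 of 25 were called by edgeR or by DESeq2 in either series, with 1 and 4 of 25 at an unadjusted p under 0.05 in the mitosis and the release series. After 120 min of 4sU in the release series 0 of 33 were called by either tool, with 1 at an unadjusted p under 0.05. The median of these other genes over 4 to 8 h was 0.06 and that of all genes 0.01.

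The rule that selected the members did not use cardiomyocytes and neurons, and there LPAR1 was tested. The members were, however, chosen with earlier results of these data known. New RNA of LPAR1 fell by 1.65-fold in cardiomyocytes and 1.91-fold in neurons, and that of UGCG did not pass the test in either. In cardiomyocytes LPAR1 was at 28.1 and 23.1 CPM with dTAG, against 40.7 and 43.7 CPM with DMSO. The arms did not overlap, and the log2 change was -0.72 ± 0.12 (adjusted p = 0.00508, edgeR, over 18645 genes). It ranged from -0.87 to -0.59 over 15 alternative settings, with adjusted p from 3.6e-06 to 0.0497. In neurons it was at 41.3 and 42.1 CPM with dTAG, against 82.2 and 77.4 CPM with DMSO. Here too the arms did not overlap, and the change was -0.93 ± 0.11 (adjusted p = 0.00102, edgeR), with -1.06 to -0.71 over 14 settings and adjusted p from 1.4e-09 to 0.0293. The change in neurons minus that in cardiomyocytes was -0.21 ± 0.17 (95% interval -0.67 to 0.25, adjusted p = 0.835, edgeR), and a difference between the cell types was not detected.

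LPAR1 was 1 of 6 tested members called in each cell type, against 4.83% of all genes in cardiomyocytes and 2.24% in neurons. Among the genes called lower, 145 were called in both cell types, LPAR1 included, which is 21.3% of the 680 lower in cardiomyocytes and 46.8% of the 310 lower in neurons. By size of fall LPAR1 was number 432 of 680 in cardiomyocytes and 132 of 310 in neurons. Summed marker levels of other cells also differed between the arms. In cardiomyocytes the summed level of 4 endothelial markers was 66.7 to 88.8 CPM with dTAG and 144 to 147 CPM with DMSO, all 4 at 1 CPM or more. That of 7 neuron markers, 4 of them at 1 CPM or more, was 44.04 to 44.996 CPM with dTAG and 80.5 to 105 CPM with DMSO. This sum rested mainly on MAP2, at a mean of 36.9 CPM with dTAG and 84.02 CPM with DMSO, while SYN1 was at 4.00 CPM with dTAG and 4.26 CPM with DMSO. The sum of 3 neural progenitor markers was 84.5 to 86.4 CPM with dTAG and 121 to 149 CPM with DMSO. Nearly all of it was NES, at a mean of 84.5 CPM with dTAG and 134 CPM with DMSO. PAX6 was at 0.810 CPM with dTAG and 1.36 CPM with DMSO, and SOX1 at 0.137 and 0.108 CPM. The sum of 7 cardiomyocyte markers was 1509.9 to 1816 CPM with dTAG and 1907 to 2239 CPM with DMSO. MYH6, MYH7, ACTN2 and MYL7 had lower means with dTAG, while TNNT2, TTN and NKX2-5 had higher ones. TNNT2 had means of 312 CPM with dTAG and 255 CPM with DMSO, and TTN of 171 and 159 CPM. In neurons the sum of 6 fibroblast markers was 219 to 245 CPM with dTAG and 260.4 to 270.3 CPM with DMSO. Most of it was COL1A2, at a mean of 202 CPM with dTAG and 227 CPM with DMSO, while LUM and PDGFRA had higher means with dTAG. The sum of the 3 neural progenitor markers was higher with dTAG, at 356 to 418 CPM, against 298 to 351 CPM with DMSO, and that of 5 glial markers 6.22 to 7.30 CPM with dTAG and 11.1 to 11.7 CPM with DMSO. The 7 neuron markers summed to 1777 to 1786 CPM with dTAG and 1715 to 1819 CPM with DMSO in neurons. No marker of these lists was at 0 in every library of an arm in the cells named, though TUBB3, NEFM and SOX1 in cardiomyocytes and GFAP and AQP4 in neurons were at 0 in single libraries. Their part in the fall of LPAR1 was not tested.

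UGCG in cardiomyocytes was at 69.7 and 69.7 CPM with dTAG, against 80.7 and 80.5 CPM with DMSO. In neurons it was at 60.0 and 61.5 CPM with dTAG, against 69.2 and 65.4 CPM with DMSO. The dTAG libraries lay below the DMSO libraries in both cell types. The log2 changes of -0.21 ± 0.09 (95% interval -0.45 to 0.03, adjusted p = 0.24, edgeR) and -0.15 ± 0.09 (-0.39 to 0.10, adjusted p = 0.596) did not pass the test after adjustment. At an unadjusted p under 0.05 (edgeR) were 2 of 6 tested members in cardiomyocytes, LPAR1 and UGCG, and 1 in neurons, LPAR1. Of all 18645 genes tested, 3087 in cardiomyocytes and 2185 in neurons were under that unadjusted threshold. The 95% intervals in these cells take 4 residual degrees of freedom, so they can hold 0 where the unadjusted p is under 0.05. SUSD1, KIAA0368, ZNF483 and PTGR1 had changes from -0.19 for KIAA0368 to 0.54 for PTGR1 in cardiomyocytes and from -0.07 for KIAA0368 to 0.33 for PTGR1 in neurons, with adjusted p from 0.389 to 0.969 (edgeR). PTGR1 rested on 7 to 19 converted reads per library. Of 35 tested neighbours 6 were at an unadjusted p under 0.05 (edgeR) in cardiomyocytes. By adjusted p 1 of the 35 was lower there, against 4.83% of all genes called. This was RGS3, a regulator of G protein signalling, at -0.81 ± 0.12 (adjusted p = 0.0031, edgeR). In neurons 0 of 35 were called by edgeR or DESeq2, with 2 at an unadjusted p under 0.05.

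**Figure D4:**
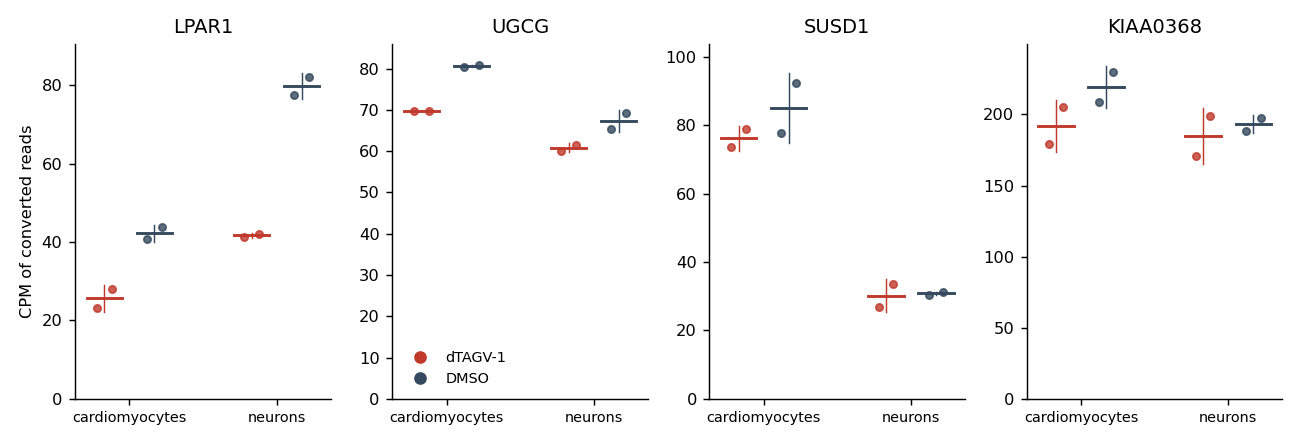
Converted reads in CPM of LPAR1, UGCG, SUSD1 and KIAA0368 in each cardiomyocyte and neuron library, dTAG left of DMSO, with mean and SD (n = 2 each) and axes from 0. LPAR1 lies at 41.3 and 42.1 CPM with dTAG in neurons, against 82.2 and 77.4 CPM with DMSO, while the arms of UGCG lie closer together.

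Between the 2 cell types in DMSO, 4 of 6 tested members differed, against 53.7% of all genes. LPAR1 was higher in neurons than in cardiomyocytes by 0.92 ± 0.11 (adjusted p = 2.9e-05, edgeR) and ZNF483 by 0.45 ± 0.12 (adjusted p = 0.00793). SUSD1 was lower in neurons, at -1.46 ± 0.13 (adjusted p = 2e-06), with 31.1 and 30.5 CPM in neurons and 77.8 and 92.3 CPM in cardiomyocytes. UGCG was lower in neurons, at -0.26 ± 0.09 (adjusted p = 0.0237), a call that was lost in 6 of 14 alternatives, among them the DESeq2 test and leaving out any 1 of the 4 DMSO libraries. ZNF483 lost its call in 3 of 14, at 0.30 without replicate 1 of the cardiomyocyte DMSO libraries, 0.41 without replicate 2 of the neuron DMSO libraries and 0.19 with totals of all reads as library size. KIAA0368 at -0.18 ± 0.10 (adjusted p = 0.149) and PTGR1 at -0.35 ± 0.39 (adjusted p = 0.496) did not pass.

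The rule that selected the members did not use changes over time in DMSO, although the DMSO libraries are those of the comparisons above. Earlier results of these data were known here too. The course of the members after mitosis was tested. From 0 to 60 min of the mitosis series 2 of 4 tested members passed, both lower at 60 min, against 35.9% of all genes. SUSD1 was at 34.5, 33.9, 24.6 and 29.5 CPM at 60 min, against 46.0, 50.3 and 48.2 CPM at 0 min, and fell by 0.64 ± 0.18 on the log2 scale (adjusted p = 0.00682, edgeR). KIAA0368 was at 407, 407, 360.4 and 372 CPM at 60 min, against 647, 452 and 505 CPM at 0 min, and fell by 0.47 ± 0.17 (adjusted p = 0.0319). Neither gene's libraries overlapped between the times. Both calls were lost without the filter on low counts, in all reads, and with totals of all reads as library size, where KIAA0368 turned to 0.12. That of KIAA0368 was also lost without replicate 2, at -0.32. LPAR1 at -0.39 ± 0.23 (adjusted p = 0.176, and -0.48, adjusted p = 0.0474, without the 120 min DMSO library that stood apart) and UGCG at 0.09 ± 0.20 (adjusted p = 0.74) did not pass.

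From 0 to 120 min 0 of 4 members were called by edgeR or DESeq2, with 0 at an unadjusted p under 0.05, against 27.8% of all genes called. LPAR1 was at 0.37 ± 0.23 (95% interval -0.10 to 0.84) and UGCG at 0.37 ± 0.21 (-0.05 to 0.80). From 30 to 120 min of drug time in the release series 1 of 5 passed, against 2.36% of all genes. This was ZNF483, at 16.8, 13.1 and 16.9 CPM at 120 min, against 8.63, 5.54 and 6.50 CPM at 30 min, which rose by 1.22 ± 0.32 (adjusted p = 0.0455, edgeR). Its call held in 4 of 9 alternatives and was lost on leaving out any 1 replicate number, at changes of 1.14 to 1.27. LPAR1 was at 0.22 ± 0.12 (adjusted p = 0.374) and UGCG at 0.39 ± 0.17 (adjusted p = 0.239).

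From 4 to 8 h 1 of 6 passed, against 13.3% of all genes. ZNF483 was at 12.02 and 14.4 CPM at 8 h, against 6.37 and 6.87 CPM at 4 h, and rose by 1.00 ± 0.24 (adjusted p = 0.0122, edgeR). That call was lost without replicate 1 at 4 h or replicate 2 at 8 h, with changes of 0.94 and 0.86. PTGR1 at 1.47 ± 0.49 (adjusted p = 0.0546) rested on 24 and 20 converted reads at 8 h, against 9 and 3 at 4 h, and did not pass. LPAR1 at 0.03 and UGCG at 0.14 had adjusted p of 0.923 and 0.478. With totals of all reads as library size the median of all genes moved to 0.62 at 60 against 0 min, 0.43 at 120 against 0 min, 0.54 in the release series and 0.59 at 8 against 4 h. Under that scaling LPAR1 was called higher in the last 3 comparisons, at 0.75, 0.78 and 0.64, and UGCG in all 4, at 0.65, 0.72, 0.95 and 0.73.

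**Figure D5:**
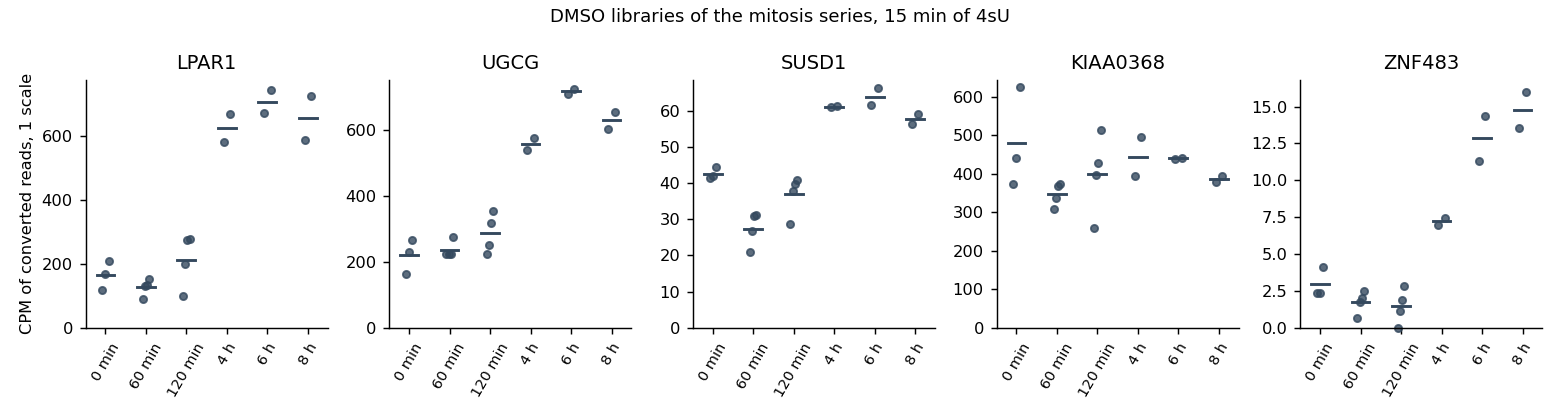
Converted reads in CPM, on 1 scale over all libraries, of 5 members in the DMSO libraries of the mitosis series with 15 min of 4sU, at 0, 60 and 120 min and at 4, 6 and 8 h after release; points are libraries, lines are means and the y axes differ. LPAR1 lies at 580.7 to 742 CPM and UGCG at 539 to 724 CPM at 4 to 8 h, above their libraries at 0 to 120 min.

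Over all 32 groups on 1 scale, LPAR1 ran from 706 ± 51.4 CPM in DMSO at 6 h of the mitosis series (SD, n = 2) to 22.4 ± 2.95 CPM in cardiomyocytes with dTAG (n = 2). UGCG ran from 877 ± 125 CPM in the release series with DMSO and 120 min of 4sU (n = 3) to 54.0 ± 2.26 CPM in neurons with dTAG (n = 2). SUSD1 was highest in cardiomyocytes with DMSO at 75.6 ± 7.01 CPM and lowest in neurons with dTAG at 26.7 ± 3.63 CPM. KIAA0368 ran from 491 ± 121 CPM at 0 min with dTAG (n = 4) to 164 ± 13.5 CPM in neurons with dTAG, and ZNF483 was highest in neurons with dTAG at 59.1 ± 2.08 CPM. PTGR1 was highest in DMSO at 8 h, at 3.96 ± 0.450 CPM (n = 2). In the order of the 32 group means, neighbours did not overlap in 3 of 31 places for LPAR1, 4 for UGCG, 2 for SUSD1, 2 for KIAA0368, 5 for ZNF483 and 1 for PTGR1, and elsewhere the order lies within the spread of the libraries.

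Across the 28 RPE-1 group means, and among 10223 genes with a mean log2 CPM of at least 3, UGCG was the gene most like LPAR1, at a Pearson correlation of 0.945. LPAR1 ranked number 2 for UGCG. These points include the dTAG groups on which the members were selected, and they share libraries, depth and series, so the values are a description. Next for LPAR1 were MN1 at 0.930, ELL2 at 0.928, PLAT at 0.918, MYO10 at 0.914 and CTSC at 0.907. For UGCG they were MN1 at 0.945, CTSC at 0.935, OXTR at 0.920, ELL2 at 0.905 and CHST15 at 0.902. SUSD1 correlated at 0.469 with LPAR1 and 0.416 with UGCG, and KIAA0368 at 0.338 and 0.248. Over the 24 groups with 15 min of 4sU the pair stood at 0.964, and each was the gene most like the other, while of the other 5 named for LPAR1 2 stayed among the 5 and for UGCG 4 did.

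Other genes of lysophosphatidic acid signalling, a list of 25 besides LPAR1, were described by their calls. This list and the sphingolipid list below were chosen with earlier results of these data known. PLPP3, a phosphatase that breaks down lysophosphatidic acid outside cells, was called lower in 5 of the 7 comparisons of dTAG with DMSO. PLPP3 fell over 30 to 120 min of the mitosis series by 1.09 ± 0.16 (adjusted p = 3.3e-05, edgeR), as 1 of 19 tested. It fell over 4 to 8 h by 2.02 ± 0.13 (adjusted p = 2.9e-09), where of 18 tested 2 were lower and 1 higher. The others were GNA12 at -0.26 ± 0.08 and ARHGEF12 at 0.30 ± 0.07. After 120 min of 4sU in the mitosis series PLPP3 fell by 1.95 ± 0.43 and ENPP2 by 1.78 ± 0.35, as 2 of 18. In the release series 0 of 19 were called by edgeR or DESeq2 for the average (2 at an unadjusted p under 0.05) and 0 of 18 with 120 min of 4sU (1 at an unadjusted p under 0.05).

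In cardiomyocytes 2 of 24 genes of this list were lower by edgeR, PLPP3 at -1.38 ± 0.10 (adjusted p = 2.9e-05) and PLPPR4 at -1.10 ± 0.27 (adjusted p = 0.0375). Another 2 were higher, the receptor LPAR2 at 0.84 ± 0.19 (adjusted p = 0.0311) and ENPP2 at 0.80 ± 0.15 (adjusted p = 0.0124). DESeq2 called 2 of the 24 there. PLPP3 was at 58.7 and 61.4 CPM with dTAG in cardiomyocytes, against 142 and 171 CPM with DMSO. In neurons 1 of 24 was lower, PLPP3 at -0.84 ± 0.10 (adjusted p = 0.000741). The list's median lay between -0.06 and 0.07 in the 7 comparisons of dTAG with DMSO, and that of all genes between 0.00 and 0.02. Shares of all genes called are those given above.

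Of 35 names in a list of sphingolipid and glycosphingolipid genes, 33 were in the files. Over 4 to 8 h 7 of 29 tested were higher with dTAG and 1 was lower, against 19.8% of all genes. Higher were ST3GAL5, which makes the ganglioside GM3, at 0.88 ± 0.23 (adjusted p = 0.00973, edgeR), ST8SIA1, which makes GD3, at 0.75 ± 0.23 and SPTLC3, a subunit of serine palmitoyltransferase, at 0.53 ± 0.13. The lower one was CERS6, a ceramide synthase, at -0.64 ± 0.08 (adjusted p = 1e-05). DESeq2 called 5 of 29. CERS6 was also the 1 of 29 called in the release series average, at -0.26 ± 0.07, and KDSR the 1 of 29 over 30 to 120 min of the mitosis series, at 0.29 ± 0.07. DEGS1 was lower in cardiomyocytes at -0.52 ± 0.11, as 1 of 30. In neurons 0 of 30 were called by edgeR or DESeq2, with 5 at an unadjusted p under 0.05. With 120 min of 4sU edgeR called 0 of 29 in each RPE-1 series, with 5 (mitosis) and 1 (release) at an unadjusted p under 0.05, and DESeq2 called 0 and 1.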

How the data were processed

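SLAM-seq libraries were made from total RNA after labelling with 100 µM 4sU. The deposited tables give, per library and gene in hg38, counts of all reads and of T-to-C converted reads, which the authors had not normalised. They also give a conversion rate per gene as a fraction, deposited by the authors and used only to identify the columns. HISAT, Picard and HTSeq are named in the submitters' processing notes, and their versions and options are not given in the sources used here. Genes without reads are not listed and were taken as 0, and 281 of 49186 genes were left out, so 48905 were used.

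Converted counts were scaled by TMM and tested with edgeR 4.0.16 (quasi-likelihood test, two-sided, Benjamini-Hochberg adjusted over all genes tested, threshold 0.05) in R 4.3.3, after a filter (minimum count 10, minimum total 15). There were 5 fits, of the mitosis series at 0 to 120 min and at 4 to 8 h, the release series, the 120 min 4sU libraries and the WTC11 cells, which tested 14206, 14570, 13927, 16571 and 18645 genes. Levels over all 32 groups were scaled together. Converted reads per library were 0.419 to 35.4 M, and the precision of low genes is limited by them. DESeq2 1.42.0, its size factors, no filter, all reads, totals of all reads as library size, a replicate block and leaving out replicates were the alternatives. Same-numbered libraries deviated together at 0 min of the mitosis series (correlations 0.195 to 0.564), with 120 min of 4sU in that series (0.152 to 0.581) and at a drug time of 120 min (0.238 to 0.422). This comes from the data and not from a label. No pair of replicates agreed within sampling noise, with a lowest chi-square of 1.73 per degree of freedom over 94 pairs.

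On simulated data with known changes, a 2-fold change was recovered in 92.5% of genes for 4 to 8 h (14203 genes), in 66.0% for neurons (17997 genes) and in 47.0% for 120 min of 4sU in the mitosis series (16229 genes), the lowest of 5 comparisons simulated. There were 15, 10 and 12 false calls in that order. Simulated libraries were drawn without the pairing described above, so recovery in the data may differ. Promoter windows came from RefSeq (GRCh38.p14). The members, marker lists and pathway lists were chosen with earlier results of these data known. Named non-members are, per list and comparison, up to 4 called genes of largest change, every called neighbour, and the 5 genes most like each of LPAR1 and UGCG.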

Additional observations from a re-analysis of the deposited data

Results flagged for a closer look

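UGCG in replicate 1 of dTAG at 60 min of the mitosis series was at 262.6 CPM, and the other 3 libraries of that group lay between 209.6 and 212 CPM. The gap was past Dixon's 95% critical value for 4 samples. In all, 24 sets of values were examined in this way, and chance gives about 1 in 20. The library brings that group close to the DMSO libraries at the same time, where the arms of UGCG overlapped.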

How the results depend on the processing

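LPAR1 kept its direction and its call in cardiomyocytes under 15 of 15 alternatives and in neurons under 14 of 14. With the totals of all reads as library size KIAA0368 turned to 0.12 at 60 against 0 min and to 0.49 in DMSO of the release series. Of the 5 other genes most like LPAR1, 2 stayed among the 5 in the 24 groups with the short label.

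Counts of all genes called moved more. The replicate block gave 884 at 120 against 30 min of the release series (329 without), 359 in cardiomyocytes (900) and 187 in neurons (417), 336 for the mitosis average (177), 518 for the release average (317), 833 for 120 min of 4sU in the mitosis series (407) and 282 in the release series (119). With the numbers crossed in cardiomyocytes, chosen after seeing the data because same-numbered libraries correlated at -0.245, it gave 2088. Without the filter there were 1730 in cardiomyocytes, 831 in neurons, 359 for the mitosis average, and 790 and 294 for 120 min of 4sU in the mitosis and the release series. In all reads there were 45 at 120 against 30 min, 512, 187, 51, 82 for the release average, 66 and 23. DESeq2 called 662 and 259 for 120 min of 4sU.

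With totals of all reads as library size there were 111 for the mitosis average, 64 for the release average, and 212 and 50 for 120 min of 4sU. Lower and higher calls were then 234 and 6530 at 60 against 0 min (1969 and 3131 with TMM), 860 and 3958 at 120 against 0 min (1864 and 2085), 38 and 3567 of 3605 at 120 against 30 min (108 and 221), and 205 and 6599 of 6804 at 8 against 4 h (980 and 961). They were 7319 and 3377 for neurons against cardiomyocytes (4993 and 5023), 556 and 66 in neurons (310 and 107), 44 and 20 for the release average (252 and 65), 53 and 58 for the mitosis average (106 and 71), and 1321 and 730 over 4 to 8 h (1561 and 1321). The cause of these shifts was not tested.

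Leaving out 1 replicate or library gave 2975 to 5546 calls at 60 against 0 min, 2485 to 3855 at 120 against 0 min, 5 to 52 at 120 against 30 min, 748 to 2069 at 8 against 4 h, 623 to 1383 in cardiomyocytes, 133 to 639 in neurons and 7836 to 10427 between them. It gave 57 to 217 for the mitosis average, 2265 to 2994 over 4 to 8 h, 106 to 224 for the release average, 76 to 262 for 120 min of 4sU in the mitosis series and 2 to 91 in the release series. At 4 to 8 h and in WTC11 cells leaving out a replicate number leaves no residual degrees of freedom and was not run. Each library was left out instead, as was the 120 min DMSO library that stood apart, both chosen after seeing the data. Low counts limit ZNF483 and PTGR1.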
